A study of Mus musculus with 6 samples.

Results

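Ide, Btaf1 and 3 neighbouring genes of mouse chromosome 19, Cpeb3, Hhex and Exoc6, were followed by their unique molecular identifier (UMI) counts in every library and cell type. They are 5 of the 32285 genes in the count matrices. Ide and Btaf1 were chosen by their measured values, because both were higher in neurons of the LPA libraries, and the other 3 by their place in the same stretch of the chromosome. The neuronal values of Ide and Btaf1 are therefore given as a description without a test, and tests of a difference between cell types leave neurons out. What was examined is whether other cell types and other genes of the locus showed the same difference. The libraries came from single nucleus RNA sequencing of C57BL/6 S-56 mouse brains collected at postnatal day (P) 15, without the olfactory bulbs and the cerebellum. At P7 the mice had received 5 µl of lysophosphatidic acid (LPA), a lipid of blood that is used to model post-hemorrhagic hydrocephalus, or of its bovine serum albumin vehicle, in the right lateral ventricle. Nuclei were sorted as negative for the neuronal protein NeuN, and each group had 3 libraries of 1 mouse each. The labels give no other treatment or allele for the 6 mice.

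Ide encodes insulin-degrading enzyme, a zinc metalloprotease of the M16 family that cleaves insulin, amyloid beta and other small peptides. Btaf1 encodes an ATPase that removes the TATA-binding protein from DNA and so redistributes it among promoters. Cpeb3 encodes an RNA-binding protein that regulates translation, best known at synapses, Hhex a homeobox transcription factor of blood, endothelial and endodermal development, and Exoc6 a subunit of the exocyst, which tethers secretory vesicles to the plasma membrane. The number of copies of a segment of chromosome 19 that holds Ide is known to differ among mice of the C57BL/6J strain. Gene copies were not measured in these libraries.

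On the GRCm38 annotation (the mm10 build of the matrices) the 5 genes lay within 757980 bases in the order Btaf1, Cpeb3, Ide, Hhex and Exoc6. Btaf1 was at chr19:36926079-37012752, forward strand, Cpeb3 at chr19:37021291-37208601, reverse strand, Ide at chr19:37268743-37337852, reverse strand, Hhex at chr19:37434810-37440731, forward strand, and Exoc6 at chr19:37550418-37684059, forward strand. From the end of Btaf1 to the start of Ide there were 255991 bases, and in this interval lay Cpeb3 and March5. Cpeb3 and March5 overlapped by 1059 bases on opposite strands, and the antisense gene A330032B11Rik lay within Cpeb3. Whether strand was used in counting is not given in the sources used here, so reads of Cpeb3 and of these partners may not be fully separated.

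The RefSeq promoter windows (GRCm38.p6, 250 bases before to 50 after each annotated start, 5′ to 3′ on the gene's strand) are shown for the pair of genes that differed in many cell types, Btaf1 and Ide, and for Cpeb3, which lies between them. Capitals mark the core of an Sp1 site, written GGGCGG, or a cyclic AMP response element, written TGACGTCA, on either strand. A TATA box, written TATAAA, was searched as well, on both strands. The windows were at chr19:36925829-36926128, forward strand (Btaf1), chr19:37207422-37207721, reverse strand (Cpeb3, the first of 3 entries) and chr19:37334495-37334794, reverse strand (Ide).
Btaf1: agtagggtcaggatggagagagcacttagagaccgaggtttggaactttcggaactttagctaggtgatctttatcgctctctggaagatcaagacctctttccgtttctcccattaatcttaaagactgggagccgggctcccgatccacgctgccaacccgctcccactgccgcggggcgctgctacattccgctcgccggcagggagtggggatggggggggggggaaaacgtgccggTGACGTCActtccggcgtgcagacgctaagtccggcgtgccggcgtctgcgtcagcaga
Cpeb3: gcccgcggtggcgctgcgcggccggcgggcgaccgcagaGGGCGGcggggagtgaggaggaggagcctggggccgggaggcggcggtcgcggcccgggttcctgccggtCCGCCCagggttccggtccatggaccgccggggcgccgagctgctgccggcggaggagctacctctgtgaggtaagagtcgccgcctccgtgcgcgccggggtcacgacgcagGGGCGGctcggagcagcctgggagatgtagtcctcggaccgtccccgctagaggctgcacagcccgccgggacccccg
Ide: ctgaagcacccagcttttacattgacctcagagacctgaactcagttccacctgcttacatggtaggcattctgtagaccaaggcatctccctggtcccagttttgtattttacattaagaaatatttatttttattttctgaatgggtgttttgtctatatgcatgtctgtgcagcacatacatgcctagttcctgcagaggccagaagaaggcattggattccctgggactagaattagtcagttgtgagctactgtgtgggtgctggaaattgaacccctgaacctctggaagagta

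The Btaf1 window held 1 TGACGTCA, which 1.79% of the 32851 RefSeq promoter windows held. The Cpeb3 window held 2 GGGCGG on its strand and 1 on the other, a motif of 35.7% of the windows. The Ide window held none of the 3 motifs, and TATAAA, found in 13.6% of all windows, was in none of these 3. There were 25 CG dinucleotides in the Btaf1 window, 42 in that of Cpeb3 and 0 in that of Ide, against a median of 7 over all windows. The RefSeq start used for the window lay 3308 bases inside the gene of the annotation used for the positions for Ide, 1130 bases inside for Cpeb3 and at the gene's first base for Btaf1. The Ide and Cpeb3 windows may thus not be the starts that these nuclei used.

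The LPA libraries held 50737541 to 54715094 UMIs and the vehicle libraries 48852970 to 65688644, and 57443 nuclei were kept, 8083 to 9746 per LPA library and 7579 to 11745 per vehicle library, at median depths of 4001 to 4578 and 3732 to 4513 UMIs. Nuclei were clustered, and 31 of 41 clusters (48900 nuclei) were assigned to 10 cell types by marker lists. Neurons made up 14348 of the nuclei kept despite the NeuN- sort, and their 13 neuronal markers summed to 20673.3 to 22476.6 CPM (UMIs scaled to a common library depth) in the LPA libraries and 21655.1 to 22265.2 in the vehicle libraries. The same markers summed to 1067.3 to 5307.0 CPM in the other types of the LPA libraries and 1117.4 to 6100.8 CPM in those of the vehicle libraries, and the part of RNA from neurons in the values of other types was not tested. Pairs of libraries shared 268 to 303 cell barcodes. By Xist and chromosome Y genes the LPA group held 1 male and 2 females and the vehicle group 2 males and 1 female, and values within each sex are given beside the first result.

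Over all nuclei kept, Ide was higher in every LPA library than in any vehicle library. Summed per library, it gave 2956, 3171 and 3219 UMIs in LPA libraries 1, 2 and 3 and 1749, 2302 and 2149 UMIs in vehicle libraries 1, 2 and 3. Scaled to each library's depth, they came to 71.97, 72.1 and 73.7 CPM in the LPA libraries and 47.02, 45.2 and 46.00 CPM in the vehicle libraries. The highest vehicle library stayed far below the lowest LPA library, and the libraries of a group lay close together, at 72.6 ± 0.955 CPM (mean ± SD, n = 3) against 46.1 ± 0.931 CPM. Ide was 1.58 times as high after LPA, a log2 fold change of 0.66 (95% interval 0.56 to 0.76) with an adjusted p of 0.000315 in edgeR's quasi-likelihood test. Genes were called at an adjusted p under 0.05 (Benjamini-Hochberg, over all genes tested) with a log2 fold change of 0.25 or more in either direction, and 3.41% of the 20207 genes tested over all nuclei were called higher in LPA. These sums include the neurons on which Ide and Btaf1 were selected, so they are not independent of the choice. Summed over the 9 named types other than neurons, Ide had 67.2, 71.6 and 69.4 CPM in the LPA libraries and 47.2, 45.4 and 45.6 CPM in the vehicle libraries, again without overlap (log2 fold change 0.59, 95% interval 0.48 to 0.71, adjusted p = 0.000275, edgeR). There 7.61% of 18455 genes were called higher and 17.1% did not overlap, in a sum that was added after the data were seen.

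Btaf1 was also higher after LPA, by a smaller factor. It had 6608, 7241 and 7315 UMIs in LPA libraries 1, 2 and 3 and 4645, 6361 and 5952 UMIs in vehicle libraries 1, 2 and 3, or 161, 165 and 167 CPM in the LPA libraries and 125, 125 and 127 CPM in the vehicle libraries. Here too the groups did not overlap, which was so for 13.4% of all genes tested with LPA as the higher group. The means were 164 ± 3.30 and 126 ± 1.49 CPM (SD, n = 3), a ratio of 1.31 and a log2 fold change of 0.39 (95% interval 0.29 to 0.48, adjusted p = 0.00215, edgeR). Over the named types other than neurons it had 155, 164 and 164 CPM in the LPA libraries and 125, 125 and 126 CPM in the vehicle libraries (log2 fold change 0.36, 95% interval 0.26 to 0.46, adjusted p = 0.000928). In the male mice (1 LPA and 2 vehicle) the log2 ratio of mean CPM was 0.63 for Ide and 0.35 for Btaf1, and in the female mice (2 LPA and 1 vehicle) it was 0.69 and 0.41. Both genes were thus higher after LPA within either sex, with too few mice for a test within a sex.

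Cpeb3, the gene between Btaf1 and Ide, did not differ detectably between the groups over all nuclei. Its levels were 258, 239 and 266 CPM in the LPA libraries and 239, 246 and 266 CPM in the vehicle libraries, and the 2 groups covered nearly the same range. The log2 fold change was 0.023 (95% interval -0.11 to 0.16, adjusted p = 0.876). Exoc6, the most distal of the 5, had 68.4, 61.7 and 68.04 CPM in the LPA libraries and 66.8, 61.2 and 65.9 CPM in the vehicle libraries. Its groups overlapped as well, with a log2 fold change of 0.031 (95% interval -0.10 to 0.17, adjusted p = 0.825). The upper bounds of both intervals were below the lower bounds of those of Ide and Btaf1 over all nuclei. As those sums include the neurons by which Ide and Btaf1 were chosen, this separation is not independent of the choice. The sign of the Cpeb3 value was not stable, at -0.010 without vehicle library 1 and 0.083 at the other end of the range over left-out libraries. Over the named types other than neurons the log2 fold changes were 0.00069 for Cpeb3 (95% interval -0.11 to 0.11) and -0.0027 for Exoc6 (95% interval -0.20 to 0.20), and the groups overlapped for both.

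**Figure D1:**
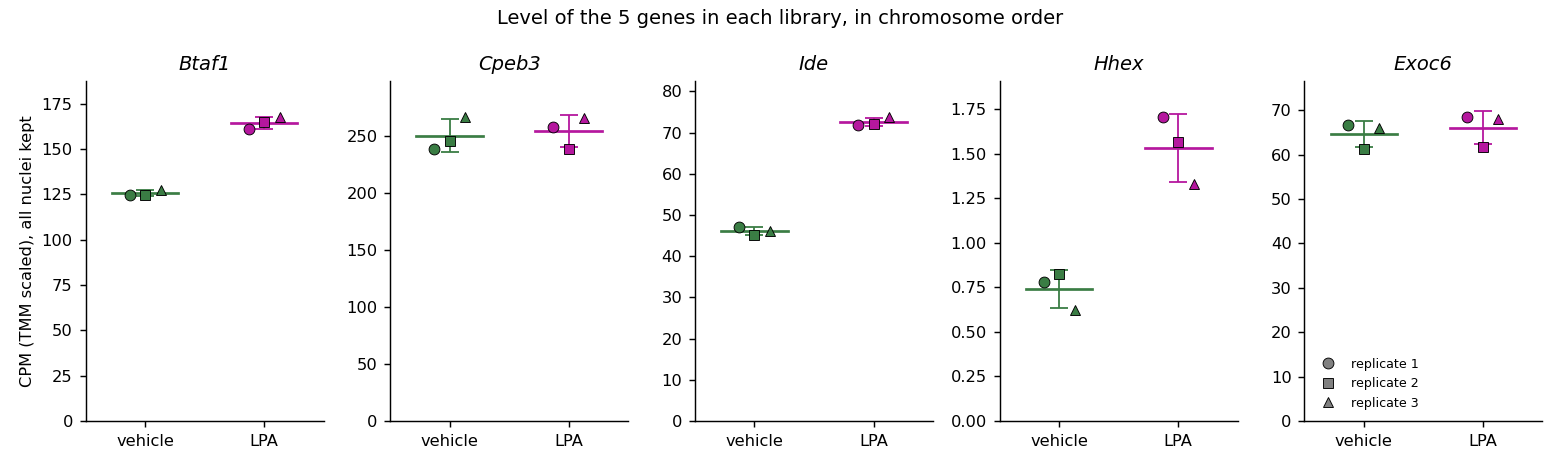
Level of each of the 5 genes (TMM-scaled CPM, linear axis from 0) over all nuclei kept, 1 panel per gene in chromosome order; points are libraries with replicate number by shape, lines are group means and bars are SD (n = 3). The LPA and vehicle libraries separate for Btaf1, Ide and the sparsely counted Hhex, and overlap for Cpeb3 and Exoc6.

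In neurons, where the genes had been selected, Ide had 76.96, 75.9 and 78.1 CPM in the LPA libraries and 46.2, 47.8 and 48.01 CPM in the vehicle libraries, and Btaf1 had 165, 171 and 171 CPM in the LPA libraries and 126, 125 and 130.2 CPM in the vehicle libraries. The log2 fold changes were 0.70 and 0.41. Over all genes, 0.0296% of the 16896 tested in neurons were called higher and 6.49% had groups that did not overlap, with LPA higher. Cpeb3 and Exoc6, the members on which no selection was made there, had neuronal log2 fold changes of 0.078 (adjusted p = 0.841) and 0.10 (adjusted p = 0.783).

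In the 9 cell types other than neurons, Ide was higher on average in the LPA libraries of all 9 and was called higher in 5, and Btaf1 was likewise higher on average in all 9 and called in 5. These types came from the same 6 mice as the neurons, so they are further cells of the same animals and not further replicates. Cpeb3 and Exoc6 were called in none of the 10 types by edgeR or by DESeq2. At an unadjusted p under 0.05, Cpeb3 passed in 1 type (immune nuclei) and Exoc6 in none.

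Among glia, both genes were higher in each of the 3 types. In astrocytes, which maintain synaptic and vascular homeostasis, Ide had 91.2, 95.4 and 93.6 CPM in the LPA libraries and 69.8, 56.3 and 60.00 CPM in the vehicle libraries and Btaf1 had 133, 149 and 149 CPM in the LPA libraries and 102, 109.8 and 113 CPM in the vehicle libraries. The groups did not overlap for either gene, and the log2 fold changes were 0.60 for Ide (95% interval 0.43 to 0.78, adjusted p = 0.000141) and 0.41 for Btaf1 (95% interval 0.26 to 0.56, adjusted p = 0.00100). Of the 14593 genes tested in astrocytes, 4.91% were called higher and 13.4% had LPA libraries all above the vehicle libraries. In oligodendrocytes, the myelinating cells, Ide had 55.4, 59.4 and 63.95 CPM in the LPA libraries and 41.6, 38.2 and 37.96 CPM in the vehicle libraries and Btaf1 149.6, 149.6 and 152 CPM in the LPA libraries and 125, 113 and 118 CPM in the vehicle libraries. Again every LPA library was above every vehicle library, with log2 fold changes of 0.61 (adjusted p = 0.00543) and 0.35 (adjusted p = 0.0222). Only 0.123% of 13768 genes were called higher there and 7.79% did not overlap, and Ide stood at rank 4 of all genes by p.

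In oligodendrocyte precursors Ide had 57.6, 62.7 and 59.00 CPM in the LPA libraries and 42.1, 45.8 and 39.3 CPM in the vehicle libraries and Btaf1 150.2, 153 and 152 CPM in the LPA libraries and 117, 112 and 109.8 CPM in the vehicle libraries. The groups were apart for both genes, with log2 fold changes of 0.49 (adjusted p = 0.0417) and 0.43 (adjusted p = 0.00470), against a background of 0.0386% of 12953 genes called higher and 6.94% without overlap. The calls in the oligodendrocyte lineage depended on single libraries. The Ide call in the precursors was lost without any library but vehicle 2 (adjusted p between 0.0604 without vehicle library 1 and 0.317 without LPA library 2). It was also lost with the replicate block, with sex as a covariate, at Leiden resolution 2 or with Scrublet calls left out (0.0504 to 0.113). The Ide call in oligodendrocytes was lost without LPA library 2 (0.0558). The Btaf1 call in oligodendrocytes was lost without LPA library 2 or 3 or vehicle library 2 or 3 (adjusted p between 0.105 and 0.201), with the block (0.109) and with sex as a covariate (0.0589). That in the precursors was lost without LPA library 2 (0.0760).

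Immune nuclei, named by markers of microglia and macrophages, had the highest fitted change of both genes, on few counts in the vehicle libraries. Ide gave 53, 64 and 60 UMIs in the LPA libraries and 7, 13 and 3 UMIs in the vehicle libraries, or 65.00, 61.2 and 72.6 CPM in the LPA libraries and 43.3, 27.5 and 23.8 CPM in the vehicle libraries. The log2 fold change was 1.11 with a wide interval (0.50 to 1.73, adjusted p = 0.0143). Btaf1 gave 225, 327 and 257 UMIs in the LPA libraries and 32, 89 and 23 UMIs in the vehicle libraries, or 276, 313 and 311 CPM in the LPA libraries and 198, 188 and 182 CPM in the vehicle libraries, a log2 fold change of 0.66 (95% interval 0.37 to 0.96, adjusted p = 0.00167). No vehicle library reached an LPA library for either gene, as for 13.2% of the 9362 genes tested, and 4.98% were called higher. The immune populations themselves differed between the groups. The LPA libraries held 392 to 544 immune nuclei and the vehicle libraries 97 to 320, and the 12 immune markers summed to 7748.8 to 8642.7 CPM after LPA and 10235.1 to 11717.4 CPM after vehicle. They also fell into different clusters. Of the 2 immune clusters, that led by Gpnmb and Spp1 held 132, 192 and 200 nuclei in the LPA libraries and 0, 1 and 1 in the vehicle libraries. Within the other cluster alone, Ide had 57.2, 68.7 and 62.9 CPM in the LPA libraries and 41.5, 26.5 and 23.9 CPM in the vehicle libraries. Btaf1 had 234, 311 and 278 CPM in the LPA libraries and 189.6, 181 and 175 CPM in the vehicle libraries (UMIs scaled to the cluster's total). The groups stayed apart for both genes in that cluster, a split made after the data were seen. Without vehicle library 2, which held most of the vehicle immune nuclei, the adjusted p rose to 0.310 for Ide and 0.0569 for Btaf1, and DESeq2 gave 0.129 for Ide.

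In the vascular types the direction was the same and no call was made. In endothelial nuclei Ide had 62.6, 62.5 and 61.7 CPM in the LPA libraries and 36.9, 33.3 and 45.1 CPM in the vehicle libraries, and Btaf1 had 193, 197 and 188 CPM in the LPA libraries and 118, 135 and 171 CPM in the vehicle libraries. The LPA libraries were all higher for both genes (log2 fold changes 0.69, adjusted p = 0.357, and 0.45, adjusted p = 0.596), as for 6.14% of 11381 genes. No gene at all was called higher in endothelial nuclei (0.0%) by edgeR or DESeq2, although 722 genes, in either direction, had an unadjusted p under 0.05. Pericytes gave few UMIs of Ide, 15, 26 and 14 UMIs in the LPA libraries and 6, 20 and 13 UMIs in the vehicle libraries, or 37.4, 53.3 and 31.4 CPM in the LPA libraries and 21.6, 38.7 and 27.6 CPM in the vehicle libraries. This was the only type in which the Ide groups overlapped (log2 fold change 0.42, 95% interval -0.23 to 1.07, adjusted p = 0.826). Btaf1 in pericytes had 192, 205 and 197 CPM in the LPA libraries and 155, 151 and 155 CPM in the vehicle libraries, without overlap (log2 fold change 0.37, adjusted p = 0.531), where 0.0129% of 7735 genes were called higher and 6.48% did not overlap.

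The cells that line the cerebrospinal fluid showed the same direction. In meningeal nuclei Ide had 87.6, 72.3 and 66.9 CPM in the LPA libraries and 49.7, 49.2 and 51.7 CPM in the vehicle libraries (log2 fold change 0.58, adjusted p = 0.0259), and Btaf1 had 209, 213 and 241 CPM in the LPA libraries and 186, 178 and 164 CPM in the vehicle libraries (log2 fold change 0.33, adjusted p = 0.0885). Ide was called and Btaf1 was not, among 12308 genes of which 0.642% were called higher and 7.79% did not overlap. In ependymal nuclei, the ciliated lining of the ventricles, Ide had 37.5, 56.1 and 50.2 CPM in the LPA libraries and 20.9, 31.4 and 33.7 CPM in the vehicle libraries (log2 fold change 0.80, adjusted p = 0.0932), and Btaf1 had 155, 163 and 174 CPM in the LPA libraries and 107, 126 and 101 CPM in the vehicle libraries (log2 fold change 0.57, adjusted p = 0.0227). Here Btaf1 was called and Ide was not, with 1.98% of 10853 genes called higher and 11.1% without overlap. Choroid plexus nuclei, which secrete the fluid, had 79.3, 97.6 and 94.2 CPM in the LPA libraries and 61.6, 66.8 and 54.1 CPM in the vehicle libraries for Ide and 184, 173 and 179 CPM in the LPA libraries and 117, 119 and 131 CPM in the vehicle libraries for Btaf1. Both genes were apart between the groups (log2 fold changes 0.59 and 0.54, adjusted p = 0.452 and 0.250), as were 6.13% of 10083 genes, and no gene was called higher (0.0%) by edgeR or DESeq2, with 618 genes, in either direction, at an unadjusted p under 0.05.

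Single libraries decided these calls as well. The meningeal Ide call was lost without any library but LPA 3 (adjusted p between 0.0538 and 0.131) by DESeq2 (0.0720) and without the mitochondrial filter (0.0501). The ependymal Btaf1 call was lost without LPA library 2 or 3 or vehicle library 1 or 3 (between 0.0511 and 0.115), by DESeq2 (0.105), with sex as a covariate (0.0656) and with Scrublet calls left out (0.161).

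**Figure D2:**
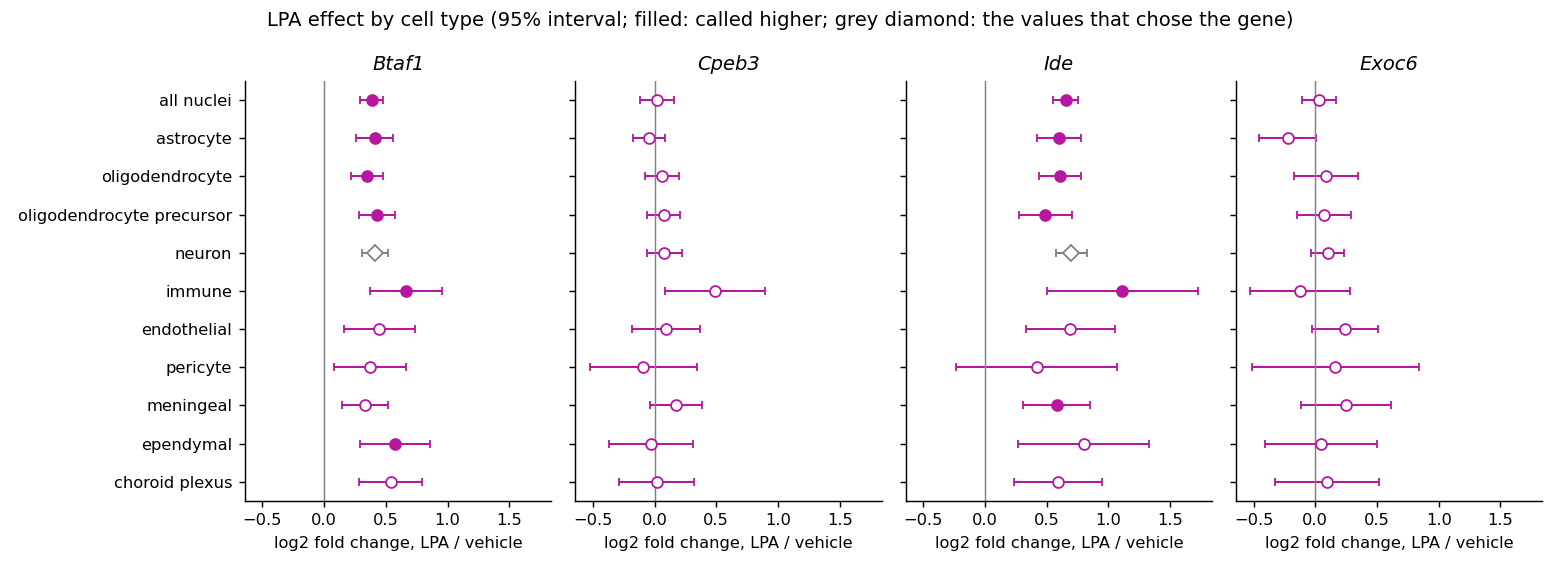
Log2 fold change, LPA over vehicle, of Btaf1, Cpeb3, Ide and Exoc6 over all nuclei and in each of the 10 cell types (edgeR; points are estimates, bars 95% intervals, n = 3 libraries per group; filled points were called higher; grey diamonds are the neuronal values by which Ide and Btaf1 were chosen). Every Btaf1 and Ide estimate lies above 0 and the Ide interval includes 0 in pericytes, whereas the Cpeb3 and Exoc6 estimates lie on both sides of 0.

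Whether the LPA effect differed between cell types was tested directly, each of 8 types against astrocytes within the libraries, with neurons left out. None of the 5 genes had an adjusted p under 0.05 in any of the 8 comparisons (Hhex was tested in 2 of them), the differences of log2 fold change being -0.16 to 0.49 for Ide (lowest adjusted p = 0.584) and -0.079 to 0.27 for Btaf1 (lowest adjusted p = 0.517). At an unadjusted p under 0.05, Ide and Btaf1 passed in 0 comparisons, Cpeb3 in 1 and Exoc6 in 4. Other genes did pass after adjustment, 1.99% of those tested for oligodendrocytes, 1.59% for their precursors, 3.99% for immune nuclei, 0.322% for endothelial nuclei, 0.494% for pericytes, 1.77% for meningeal nuclei, 2.6% for ependymal nuclei and 0.626% for choroid plexus nuclei. For immune nuclei the interval of the Ide difference ran from -0.16 to 1.15, so a difference within these bounds was not excluded.

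Cpeb3 had log2 fold changes of -0.090 in pericytes to 0.49 in immune nuclei, and outside the immune nuclei the highest was 0.17 in meningeal nuclei. In immune nuclei it had 104, 125 and 133 UMIs in the LPA libraries and 17, 45 and 11 UMIs in the vehicle libraries, or 128, 119.5 and 161 CPM in the LPA libraries and 105, 95.3 and 87.2 CPM in the vehicle libraries, with every LPA library higher and an adjusted p of 0.135. Without the filter on mitochondrial RNA the log2 fold change became -0.11. In the immune cluster that both groups shared the Cpeb3 groups overlapped, at 94.1, 107.7 and 106.4 CPM in the LPA libraries and 100.7, 91.6 and 79.7 CPM in the vehicle libraries. In oligodendrocyte precursors Cpeb3 was also apart between the groups, at 228, 222 and 220.3 CPM in the LPA libraries and 212, 215 and 211 CPM in the vehicle libraries, but by a log2 fold change of only 0.073 (adjusted p = 0.815). Exoc6 had log2 fold changes of -0.22 in astrocytes (95% interval -0.45 to 0.0055, adjusted p = 0.253) to 0.25 in meningeal nuclei (95% interval -0.12 to 0.61, adjusted p = 0.685). The astrocyte values were 31.5, 27.6 and 36.7 CPM in the LPA libraries and 36.6, 36.6 and 38.1 CPM in the vehicle libraries, and the groups overlapped. In endothelial nuclei, where Exoc6 was most abundant, it had 136, 139 and 157 CPM in the LPA libraries and 108, 129 and 128 CPM in the vehicle libraries, apart between the groups with a log2 fold change of 0.24 and an adjusted p of 0.804.

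Hhex was sparse and, among the named types, was counted mainly in 2. Over all nuclei it gave 70, 69 and 58 UMIs in LPA libraries 1, 2 and 3 and 29, 42 and 29 UMIs in vehicle libraries 1, 2 and 3, which was 1.70, 1.57 and 1.33 CPM in the LPA libraries and 0.780, 0.824 and 0.621 CPM in the vehicle libraries. The LPA libraries were all higher (log2 fold change 1.04, 95% interval 0.61 to 1.48, adjusted p = 0.0167), and the call was lost without LPA library 1 (0.0674), LPA library 2 (0.0603) or vehicle library 3 (0.0674). Immune nuclei, whose share was 4.85%, 5.58% and 4.88% in the LPA libraries and 1.49%, 2.74% and 0.826% in the vehicle libraries, moved with this value, and in sums over all nuclei more nuclei of a type and more RNA per nucleus cannot be told apart. Of the Hhex UMIs, those in immune nuclei numbered 24, 25 and 19 in the LPA libraries and 2, 7 and 3 in the vehicle libraries, and those in endothelial nuclei 20, 17 and 14 in the LPA libraries and 15, 9 and 15 in the vehicle libraries. Nuclei of no named type held 20, 16 and 18 in the LPA libraries and 7, 20 and 7 in the vehicle libraries. In immune nuclei alone the level was 29.4, 23.9 and 22.99 CPM in the LPA libraries and 12.4, 14.8 and 23.8 CPM in the vehicle libraries, with overlapping groups and a log2 fold change of 0.67 (adjusted p = 0.422), and in endothelial nuclei the log2 fold change was 0.15 (adjusted p = 0.962). Within the immune cluster that both groups shared, Hhex was higher in every LPA library. It had 35.04, 24.98 and 31.44 CPM in the LPA libraries and 11.85, 14.25 and 23.9 CPM in the vehicle libraries. These values rest on 19, 16 and 13 UMIs in the LPA libraries and 2, 7 and 3 UMIs in the vehicle libraries. The difference in that cluster was not tested. With immune nuclei left out of all nuclei, Hhex stood at 1.14, 1.03 and 0.903 in the LPA libraries and 0.740, 0.689 and 0.555 in the vehicle libraries (CPM of the remaining nuclei), still apart but by a smaller margin than over all nuclei. With the nuclei of no named type left out as well, the groups overlapped, at 0.815, 0.790 and 0.589 in the LPA libraries and 0.670, 0.377 and 0.501 in the vehicle libraries. In the other 8 types no library held more than 3 UMIs, a level at which no comparison was made.

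To compare the genes without any scaling between libraries, UMIs of Ide and Btaf1 were divided by those of Cpeb3 and Exoc6 in the same library. The ratio of Ide to Cpeb3 was 0.279, 0.302 and 0.277 in the LPA libraries and 0.197, 0.184 and 0.173 in the vehicle libraries, and that of Btaf1 to Cpeb3 was 0.623, 0.690 and 0.629 in the LPA libraries and 0.523, 0.507 and 0.478 in the vehicle libraries. Every LPA library had the higher ratio in both cases, with mean log2 differences of 0.63 and 0.36. Against Exoc6, the ratio was 1.05, 1.17 and 1.08 in the LPA libraries and 0.704, 0.738 and 0.698 in the vehicle libraries for Ide (log2 difference 0.63) and 2.35, 2.67 and 2.46 in the LPA libraries and 1.87, 2.04 and 1.93 in the vehicle libraries for Btaf1 (log2 difference 0.36). These sums include the neurons by which Ide and Btaf1 were chosen and are given without a test. Over the named types other than neurons the ratio of Ide to Cpeb3 was 0.290, 0.329 and 0.307 in the LPA libraries and 0.221, 0.199 and 0.197 in the vehicle libraries (log2 difference 0.59). That of Btaf1 to Cpeb3 was 0.668, 0.751 and 0.727 in the LPA libraries and 0.585, 0.547 and 0.543 in the vehicle libraries (log2 difference 0.36). Against Exoc6 the log2 differences there were 0.59 for Ide and 0.36 for Btaf1. Every LPA library was again above every vehicle library. For each of these 4 ratios without neurons the two-sided exact permutation test gave p = 0.1, the smallest that 3 against 3 libraries allow, and 0.1 after adjustment over the 4. The ratio of Cpeb3 to Exoc6 overlapped between the groups, at 3.78, 3.87 and 3.91 in the LPA libraries and 3.57, 4.02 and 4.04 in the vehicle libraries (log2 difference -0.0070), and that of Ide to Btaf1 was all higher in LPA, at 0.447, 0.438 and 0.440 in the LPA libraries and 0.377, 0.362 and 0.361 in the vehicle libraries (log2 difference 0.27), in comparisons added after the others. Btaf1 and Ide, on either side of Cpeb3, were thus both higher relative to it in these sums, Ide by more than Btaf1. Single types, neurons included, were less uniform. The LPA libraries were all higher in 9 of 10 types for Ide to Cpeb3, in 7 for Btaf1 to Cpeb3 and in 3 for Ide to Btaf1.

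**Figure D3:**
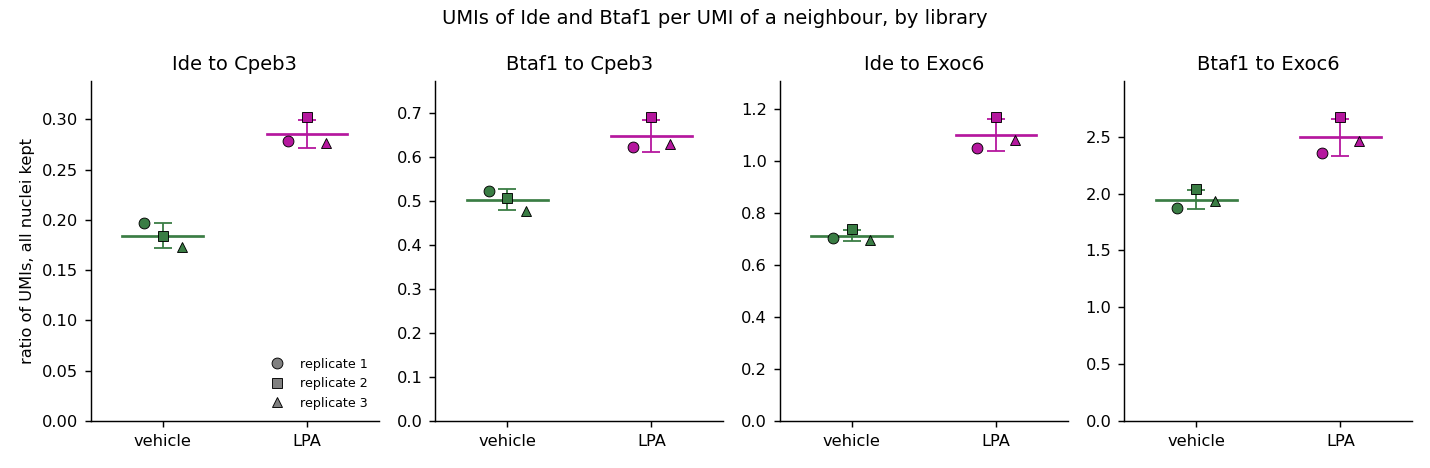
Ratio of summed UMIs of Ide or Btaf1 to those of Cpeb3 or Exoc6 over all nuclei kept (linear axis from 0); points are libraries with replicate number by shape, lines are group means and bars SD (n = 3). In each panel the 3 LPA libraries sit above the 3 vehicle libraries.

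The difference was also read at the level of single clusters, of which 39 of 41 had at least 10 nuclei in every library. These include 13 neuron clusters, made of the nuclei by which Ide and Btaf1 were chosen. The mean level of Ide was higher in LPA in 39 of the 39, with ratios of LPA to vehicle from 1.08 to 2.22 (median 1.61), and that of Btaf1 in 38, from 0.899 to 1.69 (median 1.32). For Cpeb3 this was so in 27 clusters (median ratio 1.04) and for Exoc6 in 24 (median 1.03). Of the 17 named clusters other than neurons, the mean was higher in LPA in 17 for Ide, 17 for Btaf1, 12 for Cpeb3 and 10 for Exoc6. Their median ratios were 1.48 for Ide and 1.32 for Btaf1, beside 1.600 and 1.33 in the 13 neuron clusters. Clusters were formed from the same nuclei and libraries, so these counts describe the spread over cell states and were not tested. Left out were a small unnamed cluster and the immune cluster led by Gpnmb and Spp1.

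**Figure D4:**
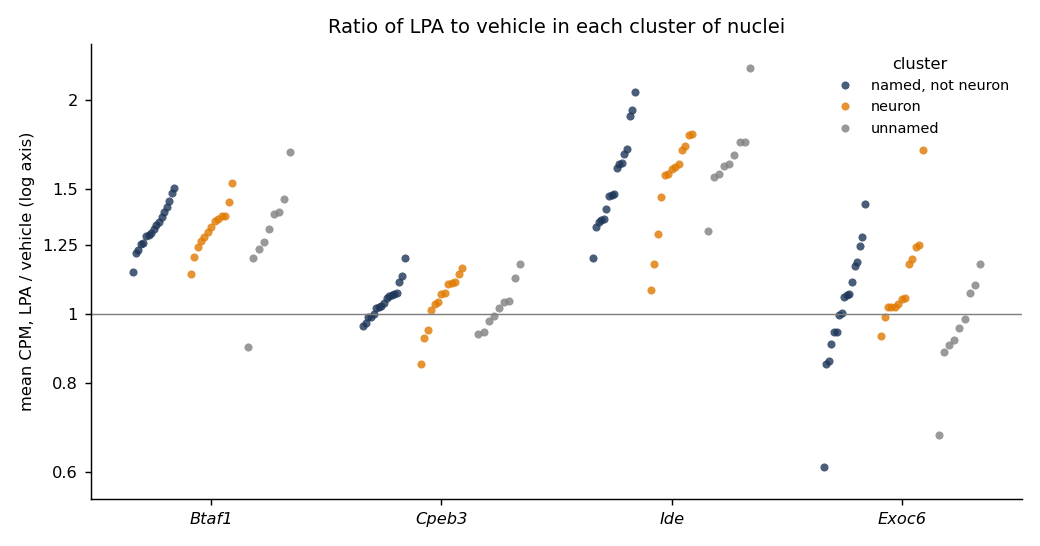
Ratio of the mean CPM of the LPA libraries to that of the vehicle libraries in each of 39 clusters (log axis), for 4 genes; each point is a cluster, coloured by whether it was named as neuron, as another cell type or left unnamed, and sorted within its colour. All 39 Ide points and 38 of the Btaf1 points lie above 1, and the Cpeb3 and Exoc6 points lie on both sides. The neuron points are of the nuclei by which Ide and Btaf1 were chosen.

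Other genes of the locus were read from the same fits. Of 45 annotated genes within 1 Mb of Ide, 28 were in the matrices, and of the 23 that are not among the 5, 16 were tested over all nuclei. Their median log2 fold change was 0.076, 10 of the 16 were above 0, and 1 was called, beside 3.41% of all genes called higher and 2.21% called lower. This was Kif11, a mitotic kinesin whose gene begins 38551 bases beyond Ide, with 4.67, 5.03 and 5.45 CPM in the LPA libraries and 3.87, 3.35 and 3.19 CPM in the vehicle libraries (log2 fold change 0.55, adjusted p = 0.0338). The Kif11 groups did not overlap, and its call was lost with any 1 of 5 libraries left out (all but vehicle 1), with the replicate block (0.0675), with sex as a covariate (0.0797) or without the filter on mitochondrial RNA (0.109). Fgfbp3, a secreted carrier of fibroblast growth factors, ends 6464 bases before Btaf1 and had 5.48, 5.91 and 5.04 CPM in the LPA libraries and 4.41, 5.89 and 5.33 CPM in the vehicle libraries. Its groups overlapped (log2 fold change 0.067, 95% interval -0.23 to 0.36, adjusted p = 0.828). March5, a mitochondrial ubiquitin ligase between Cpeb3 and Ide, had 33.3, 34.4 and 32.7 CPM in the LPA libraries and 32.2, 35.6 and 34.8 CPM in the vehicle libraries, also with overlap (log2 fold change -0.032, 95% interval -0.16 to 0.098, adjusted p = 0.810).

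The remaining genes before Btaf1 had log2 fold changes over all nuclei of 0.17 for Pcgf5, -0.050 for Hectd2, 0.23 for Hectd2os, 0.15 for Ppp1r3c and 0.020 for Tnks2, and A330032B11Rik, within Cpeb3, had -0.22. Beyond Exoc6 they were -0.35 for Myof, 0.62 for Cep55, -0.60 for Rbp4, 0.21 for Pde6c, -0.0087 for Fra10ac1, 0.096 for Lgi1 and 0.086 for Gm42723. None of these was called over all nuclei. Over the named types other than neurons, 4 of the neighbours were called in either direction. Of all 18455 genes tested there, 1404 (7.61%) were called higher and 1056 lower. The 4 neighbours were Kif11 (0.56), Hectd2os (0.64) and Lgi1 (0.31), which were higher, and Rbp4 (-1.44), a retinol carrier, which was lower. In the 2 single types where Rbp4 was tested, its lowest log2 fold change was -0.68 and it was not called. The LPA libraries held more immune and fewer meningeal nuclei, and the part of cell type shares in the values of these 4 genes was not tested. Tnks2 encodes a tankyrase and Myof a protein of membrane repair. In the 10 cell types, 15 of these genes gave 102 fitted values with a median log2 fold change of 0.043, of which 60 were above 0, 3 were called higher and 1 lower. The 3 were in immune nuclei, where 4.98% of all genes were called higher. They were Tnks2 at 0.48 (adjusted p = 0.0434), Hectd2os at 2.22 (adjusted p = 0.000715) and Myof at 2.37 (adjusted p = 0.00160). The gene that fell was Lgi1, which encodes a secreted synaptic protein, in ependymal nuclei (-0.51, adjusted p = 0.0356), where 1.51% were called lower. Lgi1 was not called with any library left out (adjusted p between 0.0698 and 0.172), Tnks2 with any but vehicle 1 left out (0.0795 to 0.379) and Myof without vehicle library 2 (0.203). Myof was also lost at Leiden resolution 2 and without the mitochondrial filter (0.298 to 0.840). Tnks2 was lost under these settings too, by DESeq2 and with the replicate block (0.0890 to 0.307). Lgi1 was lost by DESeq2, with the block and with sex as a covariate (0.05003 to 0.162). The Hectd2os call held with each library left out and under every other setting. None of these other genes was called in more than 1 cell type, whereas Ide and Btaf1 were each called in 5 of the 9 types other than neurons. Not all were tested in each type, with Kif11 tested in 4, Ppp1r3c in 5, Rbp4 in 2 and Pde6c and Gm42723 in 1 each. Hectd2, Tnks2, March5, Fra10ac1 and Lgi1 were tested in all 10. Ide and Btaf1 had also been chosen by their neuronal values, so these counts of calls are not like for like. In 9 of the 102 values all LPA libraries were higher, beside 6.13% to 13.4% of all genes tested in a cell type.

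**Figure D5:**
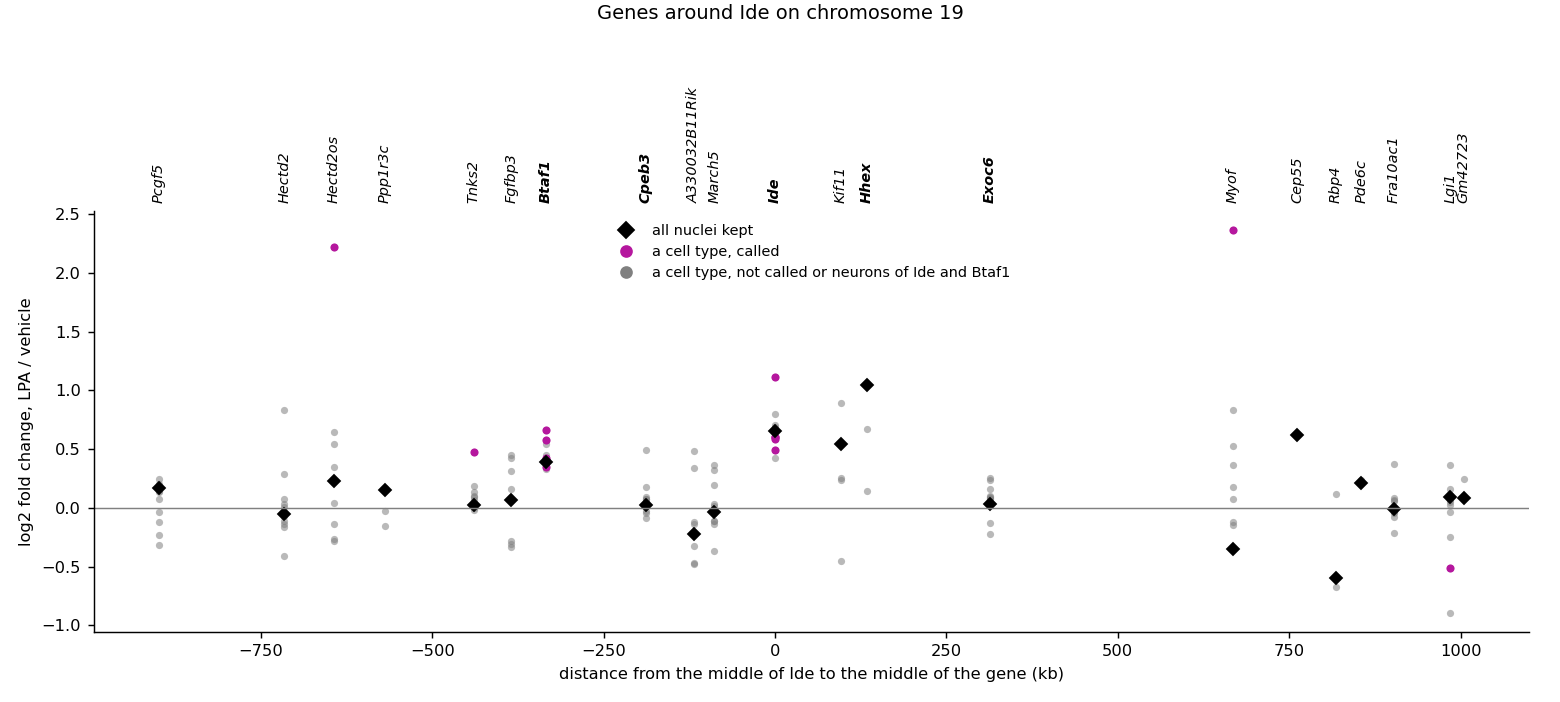
Log2 fold change, LPA over vehicle, against the distance in kb from the middle of Ide to the middle of each gene within 1 Mb that was tested (members in bold); diamonds are all nuclei, circles single cell types, coloured where called, with the neuronal values of Ide and Btaf1 in grey. Over all nuclei Ide stands at 0.66 and Btaf1 at 0.39, with Cpeb3 (0.023) and March5 (-0.032) between them near 0; Hhex, Kif11 and Cep55 also lie above 0.5.

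The 5 genes had different orders of abundance over the cell types of the vehicle libraries (TMM-scaled CPM, mean ± SD, n = 3). Ide was highest in astrocytes at 62.04 ± 6.99 CPM and choroid plexus nuclei at 60.8 ± 6.37 CPM, whose ranges overlapped, followed by meningeal nuclei (50.2 ± 1.30 CPM) and neurons (47.4 ± 0.983 CPM), each apart from its neighbours in the order. Oligodendrocyte precursors, oligodendrocytes, endothelial nuclei, immune nuclei, pericytes and ependymal nuclei followed, from 42.4 ± 3.22 CPM to 28.7 ± 6.85 CPM, and each of these overlapped with the next. Btaf1 was highest in immune nuclei (189.6 ± 7.91 CPM) and meningeal nuclei (176 ± 11.3 CPM), which overlapped with each other, and the meningeal range lay above that of pericytes, the next in order. From pericytes (154 ± 2.27 CPM) through endothelial nuclei, neurons, choroid plexus nuclei, oligodendrocytes, precursors and ependymal nuclei down to astrocytes (108 ± 5.83 CPM), neighbours in the order overlapped. Astrocytes were thus at the top for Ide and at the bottom for Btaf1. Cpeb3 was highest in neurons (295 ± 17.5 CPM) and astrocytes (278 ± 11.7 CPM), with overlap, and lowest in pericytes (94.2 ± 27.1 CPM). Exoc6 was highest in endothelial nuclei (122 ± 12.03 CPM) and lowest in meningeal nuclei (28.8 ± 5.09 CPM). Hhex was found in immune nuclei (17.00 ± 6.01 CPM) and endothelial nuclei (12.2 ± 2.94 CPM), and its mean was at most 0.817 CPM elsewhere.

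Genes that work with the members were read from lists. Of 14 other M16 metalloproteases and peptidases that degrade insulin or amyloid beta, 2 were higher over all nuclei, Ctsd (a lysosomal protease, log2 fold change 0.64, adjusted p = 0.0197) and Nln (neurolysin, 0.26, adjusted p = 0.0213). The median log2 fold change of the list was 0.0037, that of all genes being -0.014, and 3.41% of all genes were called higher there. Ctsd was not called without any 1 of the LPA libraries (adjusted p 0.0512 to 0.0727), and Nln not without LPA library 1 or 3 or vehicle library 2 or 3 (0.0598 to 0.0860). In single types Nln was higher in astrocytes (0.42) and immune nuclei (1.17), Uqcrc1, a subunit of respiratory complex III, was lower in astrocytes (-0.29, adjusted p = 0.0260, lost without any library but vehicle 2, 0.0658 to 0.103), and no other was called. The background was 4.91% of genes called higher and 3.1% lower in astrocytes and 4.98% higher in immune nuclei, and the immune Nln call was lost without vehicle library 2 (0.277). The closest relatives of Ide, Nrd1 and Pitrm1, had log2 fold changes over all nuclei of -0.061 (adjusted p = 0.540) and 0.11 (adjusted p = 0.324) and were called in no type. None of the other peptidases was thus called in as many types as Ide, which had been chosen by its values.

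Of 16 insulin and IGF ligands, receptors, adaptors and amyloid precursor family genes, 14 were tested over all nuclei, where Igf1 was higher (0.53, adjusted p = 0.0169) and Igf2 (-1.09) and Grb10 (-0.42) were lower, with a median of 0.016 and a background of 3.41% of genes higher and 2.21% lower. The Igf1 call was lost without LPA library 2 or vehicle library 3 (adjusted p 0.0635 at most). Meningeal nuclei numbered 291 to 480 in the LPA libraries and 656 to 1129 in the vehicle libraries, and the part of their share in the Igf2 and Grb10 values over all nuclei was not tested. In immune nuclei Igf1 was higher by 4.93 (adjusted p = 7.15e-14), Aplp2 by 1.42 (adjusted p = 1.90e-06) and Igf1r by 0.57. The Igf1r call was lost without vehicle library 2 (0.120). Of all genes 4.98% were called higher in this class, which in the LPA libraries lay partly in the cluster led by Gpnmb and Spp1. The higher Igf1 over all nuclei went with more immune nuclei in the LPA libraries, whose part was not tested. Irs1, an insulin receptor substrate, was higher in astrocytes (0.60, adjusted p = 9.23e-05) and meningeal nuclei (0.48). App, whose product gives rise to amyloid beta, was higher in astrocytes (0.27), where Igf2 was lower (-1.29). The 11 meningeal markers summed to 172 to 183 CPM in the astrocytes of the LPA libraries and 202 to 218 CPM in those of the vehicle libraries, and their part in the astrocyte Igf2 value was not tested. Irs2 was higher in ependymal nuclei (0.73), where 1.98% of genes were called higher, and 0.642% were so in meningeal nuclei. With a library left out, the App call was lost without LPA library 1 or 2 or vehicle library 1 or 3 (0.0713 to 0.157). The meningeal Irs1 call was lost without LPA library 3 or vehicle library 1 or 3 (0.0705 to 0.158). The Irs2 call was lost without any library but LPA 1 (0.0589 to 0.0986). Igf2, Grb10, Igf1r, App and Irs2 were named after their values were seen, to complete these counts.

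Of 18 genes of the TATA-binding protein, its partner NC2 and TFIID, on which Btaf1 acts, 17 were tested over all nuclei and none was called (0 by DESeq2, 3 at an unadjusted p under 0.05), with a median of -0.047. Of all 20207 genes tested there, 1136 were called in either direction and 4225 had an unadjusted p under 0.05, with a median of -0.014. A list of this size thus cannot be told from other genes by these counts. Over the 10 types the only call was Taf3, lower in ependymal nuclei (-0.75, adjusted p = 0.0380), where 1.51% of genes were called lower. It was lost without any library but vehicle 2 (adjusted p 0.0787 to 0.222), by DESeq2 and with sex as a covariate. Among the 3 other CPEB genes, Cpeb1 was higher in astrocytes (0.31, adjusted p = 0.0396) and Cpeb4 in immune nuclei (0.62, adjusted p = 0.0200), against 4.91% and 4.98% of genes called higher. The Cpeb1 call was lost without any library but LPA 2 (0.0527 to 0.203) and the Cpeb4 call without LPA library 2 or 3 or vehicle library 1 or 2 (0.0760 to 0.287). Both were lost by DESeq2. None of the 8 other exocyst subunits was called over all nuclei or in any type by edgeR or DESeq2, and at an unadjusted p under 0.05 there was 1 each over all nuclei and in astrocytes, immune nuclei and choroid plexus nuclei. Of all genes, 3056 of 14593 in astrocytes, 1834 of 9362 in immune nuclei and 618 of 10083 in choroid plexus nuclei had an unadjusted p under 0.05. Exoc6b, the paralog of Exoc6, had -0.17 over all nuclei (adjusted p = 0.0542).

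As a description, the genes whose levels moved most like Ide and Btaf1 were looked up over 60 points (10 cell types in 6 libraries, each gene centred within its cell type, 6817 genes compared by Pearson's r of log2 CPM). The most similar to Ide were Btaf1 (0.851), Eri3 (0.778), Ago2 (0.748), Man1c1 (0.711) and Abhd12 (0.707). Those most similar to Btaf1 were Ide (0.851), Asap1 (0.758), Eri3 (0.744), Eif4g3 (0.717) and Mprip (0.708). Ide and Btaf1 were thus each other's nearest gene, with the neurons by which both were selected among the points. Points of one library share a mouse and its depth, so the values carry no p. Cpeb3 ranked 153 by likeness to Ide and 737 by likeness to Btaf1, and Exoc6 ranked 700 and 1195.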

How the data were processed

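Single nucleus RNA-seq (10x Genomics) was performed on sorted NeuN- nuclei from 3 LPA- and 3 vehicle-injected mice. The authors aligned reads to a pre-mRNA mm10 reference with Cell Ranger 4.0.0, and the deposited matrices hold UMI counts per gene and nucleus, not normalized. Nuclei with fewer than 300 genes, over 1% mitochondrial UMIs or outlying UMIs were removed, following the study's methods, which set the outlier limit by the interquartile range. The limit of 1.5 such ranges above the upper quartile was chosen here. Cells were clustered in scanpy 1.11.5 (3000 variable genes, 40 principal components, 30 neighbours, Leiden resolution 1) and named by marker lists, with naming limits set after the clusters were seen. Scrublet called 12.3% to 15.4% of nuclei as doublets, which were kept in the main analysis and left out in an alternative. Counts were summed per library (the replicate) over all nuclei and per cell type and tested with edgeR 4.0.16 (quasi-likelihood, TMM, filterByExpr), with DESeq2 1.42.0 as an alternative. CPM are TMM-scaled. On simulated data with the real means, 9% (immune) to 73% (astrocyte) of genes changed by 0.7 and 1% to 28% of those changed by 0.4 on the log2 scale were called, all with the right sign, and 3.81% to 21.4% of calls were false. Genes named are the 5 members, tested genes within 1 Mb of Ide, called list genes (at most the 3 of lowest adjusted p per list), paralogs and the 5 most similar genes of Ide and Btaf1. Members and lists were chosen with earlier results of these data known.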

Additional observations from a re-analysis of the deposited data

Results flagged for a closer look

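Some genes near Ide had LPA effects that differed between cell types. The test of the difference against astrocytes, within libraries, gave a log2 difference of -1.36 for Kif11 in oligodendrocyte precursors (adjusted p = 0.0434), where its log2 fold change was -0.45 against 0.89 in astrocytes. For Hectd2os in immune nuclei the difference was 2.16 (adjusted p = 0.000666), with 2.22 in immune nuclei and 0.040 in astrocytes. For Lgi1 in ependymal nuclei it was -0.63 (adjusted p = 0.0137), with -0.51 against 0.11.

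In 2 genes the libraries moved one way in one type and the opposite way in another. March5 had all LPA libraries below all vehicle libraries in astrocytes (-0.11) and choroid plexus nuclei (-0.37), and all above them in ependymal nuclei (0.37). Lgi1 had all LPA libraries lower in ependymal nuclei (-0.51) and all higher in oligodendrocytes (0.36) and choroid plexus nuclei (0.16). For these pairs of types the difference itself was not tested, except that of March5 between ependymal nuclei and astrocytes, which was 0.50 (adjusted p = 0.408). None of the 5 members showed such a difference. Among all genes tested, LPA libraries were all lower for 1761 of 14593 in astrocytes, 580 of 10083 in choroid plexus nuclei and 1076 of 10853 in ependymal nuclei. They were all higher for 11.1% in ependymal nuclei, 7.79% in oligodendrocytes and 6.13% in choroid plexus nuclei. With many genes and types read, opposite pairs like those of March5 and Lgi1 cannot be told from this background.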

How the results depend on the processing

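Over all nuclei Ide and Btaf1 stayed called higher under every alternative run. These sums include the neurons by which both were chosen, and the calls in single types outside neurons were less stable, as given below. With 1 library left out at a time, the log2 fold change over all nuclei was 0.65 to 0.67 for Ide, 0.38 to 0.41 for Btaf1, -0.010 to 0.083 for Cpeb3 and 0.94 to 1.15 for Hhex. The replicate numbers did not pair the libraries (same-numbered r −0.03 to 0.38, other pairs −0.36 to 0.29), and with the replicate block Ide in oligodendrocyte precursors (adjusted p = 0.0591) and Btaf1 in oligodendrocytes (adjusted p = 0.109) were no longer called. Of the 7 alternatives that left out no library and gave an adjusted p for Ide in the precursors, 4 lost the call (highest adjusted p 0.113, with sex as a covariate). The block values over all nuclei were 0.66 for Ide and 0.39 for Btaf1. Outside neurons Ide was called in 2 types by DESeq2, which gave no adjusted p in oligodendrocyte precursors, and in 2 to 4 with a library left out, Btaf1 in 3 with sex as a covariate and in 2 to 5 with a library left out, each against 5. The lowest counts came without LPA library 2 for both genes. Summed over the named types other than neurons, an alternative added after the data were seen, Exoc6 turned to -0.0027, 1404 genes were called higher, against 689 over all nuclei, and 4 other genes within 1 Mb of Ide were called in either direction.

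Signs of some values that were not called turned, mostly of those under 0.2 in size, with Cpeb3 in immune nuclei (0.49) as the exception. Cpeb3 became -0.074 in choroid plexus nuclei and Hhex -0.17 in endothelial nuclei without Scrublet calls. Without the mitochondrial filter Cpeb3 became -0.11 in immune and 0.00068 in ependymal nuclei, Exoc6 0.020 in immune and Hhex -0.021 in endothelial nuclei. At Leiden resolution 2 Hhex was -0.13 in endothelial nuclei, and with sex as a covariate Exoc6 was -0.068 in ependymal nuclei. With a library left out, Cpeb3 was -0.24 to 0.10 in pericytes, -0.21 to 0.084 in ependymal and -0.12 to 0.15 in choroid plexus nuclei, Hhex -0.034 to 0.30 in endothelial nuclei, and Exoc6 -0.018 to 0.25 in oligodendrocytes, -0.0078 to 0.17 in their precursors, -0.11 to 0.35 in pericytes and -0.059 to 0.20 in ependymal nuclei.

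The number of genes called higher moved with the setting. DESeq2 called 11 in neurons, 55 in oligodendrocytes, 264 in immune nuclei, 101 in ependymal nuclei and 0 in pericytes. Without the filter on low counts it was 155 in oligodendrocytes, 37 in precursors, 16 in neurons, 28 in endothelial nuclei, 14 in pericytes, 137 in meningeal, 426 in ependymal and 15 in choroid plexus nuclei. The block gave 2 in oligodendrocytes, 9 in neurons and 9 in pericytes, and the sex covariate 5 in oligodendrocytes, 2 in precursors, 3 in neurons and 3 in pericytes. Without the mitochondrial filter there were 40 in oligodendrocytes, 677 in meningeal and 330 in ependymal nuclei, at Leiden resolution 2 there were 269 in oligodendrocytes and 3 in endothelial nuclei, without Scrublet calls 2 in precursors, 5 in choroid plexus nuclei and 0 in pericytes, and with RLE factors 0 in pericytes. The main counts were 17, 5, 5, 466, 0, 1, 79, 215 and 0 in oligodendrocytes, precursors, neurons, immune, endothelial, pericyte, meningeal, ependymal and choroid plexus nuclei. With a library left out they were 290 to 871 over all nuclei, 1 to 102 in oligodendrocytes, 0 to 24 in precursors, 2 to 10 in neurons, 240 to 440 in immune, 0 to 5 in endothelial, 0 to 9 in pericyte, 19 to 70 in meningeal, 80 to 185 in ependymal and 0 to 2 in choroid plexus nuclei. Of the other genes within 1 Mb of Ide, 1 was called over all nuclei, against 2 by DESeq2 and 0 with the block, the sex covariate or no mitochondrial filter (0 to 1 with a library left out), and 4 values over the types, against 2 by DESeq2, the block or Leiden resolution 2 (2 to 3 with a library left out). With vehicle library 1 left out, 1 member differed between types, Exoc6 in oligodendrocytes against astrocytes, so the count of such differences was 0 to 1.

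With 3 libraries per group, types of few nuclei gave wide intervals, as in immune nuclei with 7, 13 and 3 UMIs of Ide in the vehicle libraries. The parts of ambient RNA and of gene copies in these values were not tested.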

Other observations

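The 10 clusters that no marker list named were in no comparison by cell type. Among the reasons to leave a cluster unnamed was that it held markers of different types. These nuclei may thus hold neuronal RNA, whose part was not tested. Summed over their nuclei, Ide stood at 73.7 against 44.5 CPM in the LPA and vehicle libraries (means, n = 3), Btaf1 at 166 against 126 CPM, Cpeb3 at 244 against 239 CPM and Exoc6 at 59.9 against 58.3 CPM. The ratios were 1.65, 1.32, 1.02 and 1.03. In the 9 unnamed clusters with enough nuclei, the mean of Ide was higher in LPA in 9 and that of Btaf1 in 8.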
